A study of Mus musculus with 27 samples.

Results

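The libraries described here were made from 8-week mouse islets, the clusters of hormone-secreting cells of the pancreas, and they are 5 of the 27 samples of the series. Members were chosen by their labels: 3 libraries came from islets with a beta-cell-specific mutation of the SD domain of Nkx2.2 (betaSDmut, called mutant 1, 2 and 3 below), and 2 came from control islets of the same age (control 1 and 2), which the series describes as wildtype. The Cre line that restricts the mutation to beta cells, and the alleles that the controls carry, are not given in the sources used here. Nor do the labels say whether each library came from a separate animal or from pooled islets, so the p-values below measure the spread between these libraries, which may be partly technical. The wider study also profiled fetal pancreas with the same mutation, islets lacking Nkx2.2 in beta cells, motor neuron progenitors with and without Nkx2.2 or its mutant, and the genomic sites bound by Nkx2.2 in a mouse insulinoma line, MIN6. The question put to the 8-week islets was which transcripts differ when beta cells carry Nkx2.2 with a mutated SD domain.

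Nkx2.2 is a homeodomain transcription factor of the NK2 class that islet beta cells need in order to form and to keep their identity. NK2-class proteins share, besides the DNA-binding homeodomain, a short conserved stretch called the NK2-specific or SD domain. Beta cells sense glucose by taking it up and metabolising it, which closes potassium channels, opens calcium channels and releases insulin from dense-core granules. Alpha, delta and PP cells share the islet and secrete glucagon, somatostatin and pancreatic polypeptide, so a bulk islet library mixes their RNA with that of beta cells. In such bulk libraries fewer cells of a type and less RNA per cell cannot be told apart.

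Each library held between 22034738 and 26959761 counts assigned to genes, and its 10 most abundant genes took 27.2% to 31.2% of them. Values below are CPM, read counts scaled to a common depth with edgeR's factors between libraries, unless FPKM, the authors' length-scaled unit, is named. Insulin transcripts marked every library as islet: Ins2 stood at 159521 and 166281 CPM in the controls and 140137, 143845 and 140731 CPM in the mutants. The 2 controls were closer to each other (Spearman's rho across genes 0.994) than the mutants were among themselves (0.978 to 0.987), and control and mutant libraries correlated at 0.967 to 0.974. Genes are not independent replicates, so these coefficients are given as descriptions.

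Several libraries stood apart in ways that the labels do not give. Xist, the RNA of the inactive X chromosome, was at 1.65 and 3.49 CPM in the controls and 729, 2.39 and 1.3 CPM in the mutants. Ddx3y, a Y-linked gene, was at 85 and 76.7 CPM in the controls and 0.123, 76.9 and 76.9 CPM in the mutants, and Kdm5d, Eif2s3y and Uty had the same pattern. Mutant 1 was therefore the 1 library with the transcripts of female mice, and the other 4 libraries had those of male mice. The fit without mutant 1 compares 2 male mutant with 2 male control libraries, and its results are given beside those of all 5. Where mutant 1 was seen to differ from the other mutants, calls gained by leaving it out are no independent support. Acinar markers, which come from the exocrine pancreas around islets, summed to 41994 and 25251 CPM in the controls and 3091, 6005 and 34210 CPM in the mutants, with mutant 3 near the controls. Markers of cortical and hippocampal neurons were also present: 16 genes of a list chosen after values were seen summed to 35.5 and 49.1 CPM in the controls and 1.15, 1.21 and 2.65 CPM in the mutants. By total counts, the same 16 genes summed to 34.1 and 47.4 CPM in these controls, 3.30 and 2.50 CPM in the controls of the 4-week islets, and 3.10 and 12.3 CPM in the 4-week Nkx2.2 knockout islets.

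**Figure D1:**
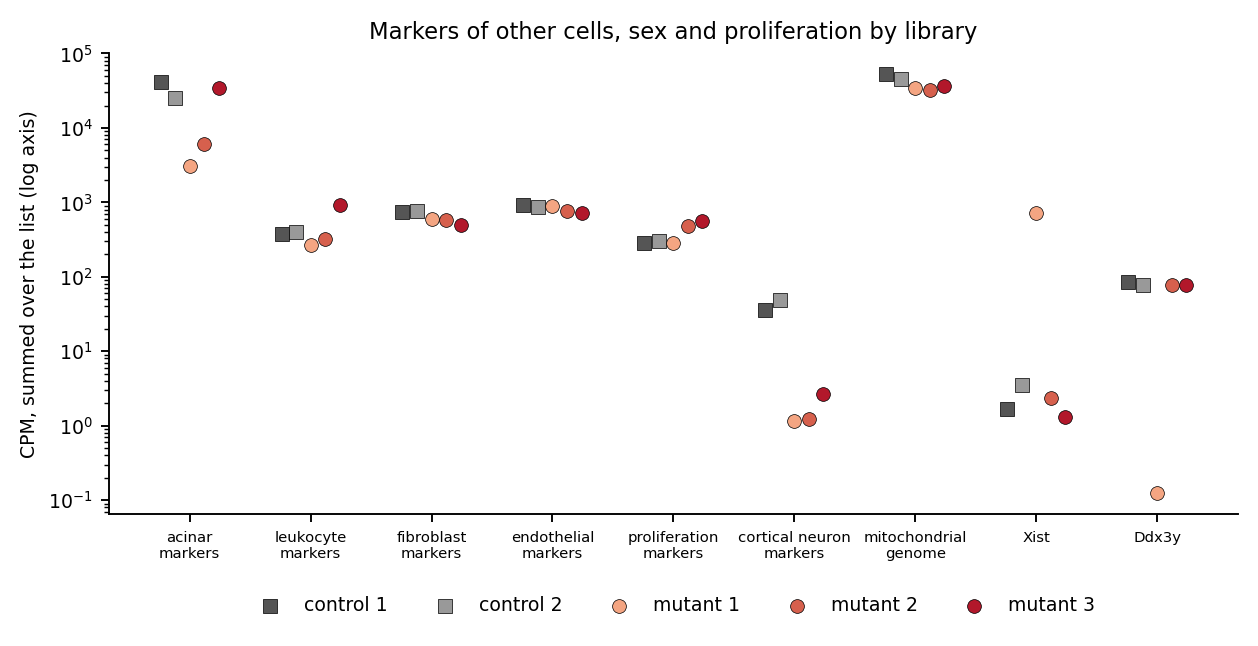
Summed CPM of marker lists, and CPM of Xist and Ddx3y, in each library on a log axis; squares are controls and circles mutants. Cortical neuron markers were at 35.5 and 49.1 CPM in the controls and at most 2.65 CPM in the mutants, Xist was high in mutant 1 alone, and acinar markers varied within the mutants.

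Of 26487 genes in the count table, 15413 passed the filter on low counts and were tested, and 1224 of these, 7.94%, had an adjusted p under 0.05 in edgeR's quasi-likelihood test with Benjamini-Hochberg adjustment. A gene past that threshold is said here to have risen or fallen. By direction, 628 genes (4.07%) were higher in the mutants and 596 (3.87%) were lower, and the median log2 fold change of all genes tested was 0.01. Changes of at least 4-fold were fitted for 140 of the higher and 91 of the lower genes, and changes of at least 8-fold for 73 and 43. All 1224 had groups that did not overlap in CPM, as had 45.9% of all genes tested. A lack of overlap given below for a called gene is therefore no further support for it. Counts called in each list below are to be read against these shares of 7.94%, 4.07% higher and 3.87% lower. The lists were chosen with earlier results of these data known, so a share above these is no test of a list. Near or below 7.94% were the lists of Notch (8.0%), homeobox (6.98%), glycolysis (6.67%), cadherin (5.56%) and respiratory chain (5.0%) genes. So, among others, were cytochrome P450 (8.7%), SOX to forkhead (6.38%), chloride to TRP channel (5.26%), tetraspanin (4.55%) and disallowed (4.0%) genes, and fibroblast markers (6.25%). Scaling by total library size in place of edgeR's factors gave 927 higher and 434 lower genes, a share of 68.1% higher against 51.3%. The number of calls rested on single libraries: it was 45 without control 1 and 37 without control 2, fits in which the remaining control is assumed to vary like the mutants, and 384 without mutant 2. Without mutant 1, 2765 of 15304 genes (18.1%) were called, 1398 higher (9.13%) and 1367 lower (8.93%), and these included 1212 of the 1224.

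**Figure D2:**
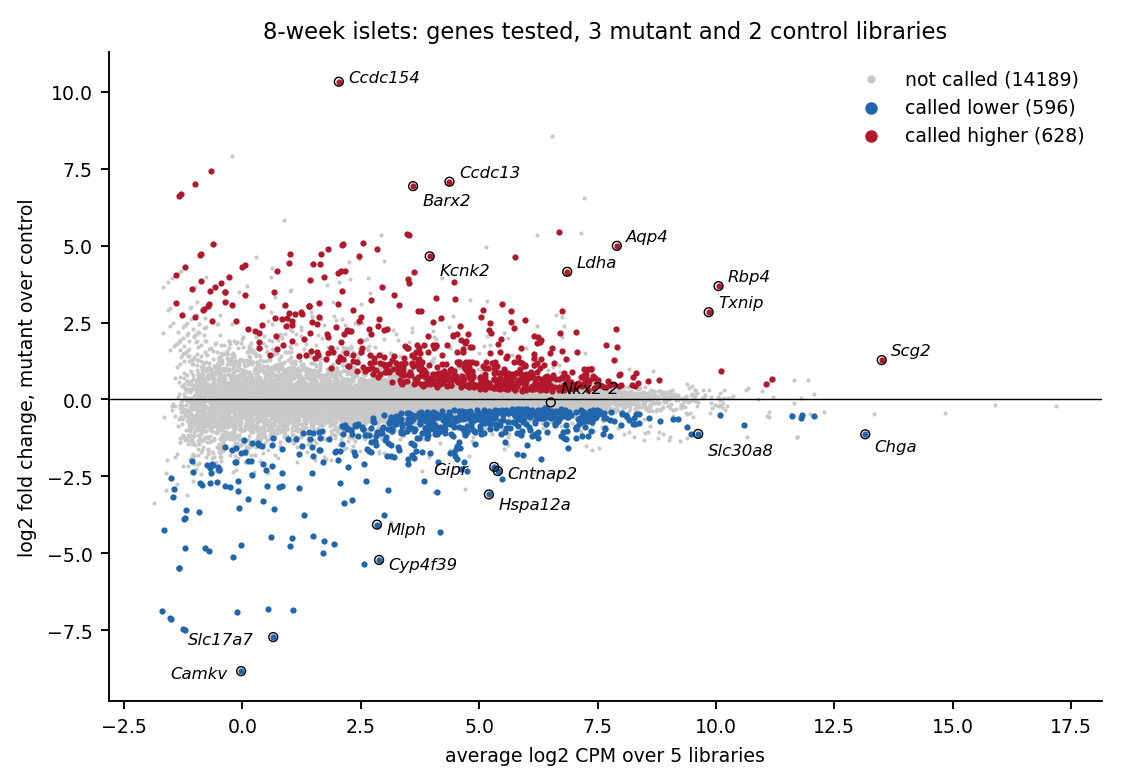
Log2 fold change of mutant over control islets against average log2 CPM for the 15413 genes tested; red genes were called higher (628), blue genes lower (596) and grey genes not called. Ccdc154 and Ccdc13 lie at the top, Camkv and Slc17a7 at the bottom, and Rbp4, Txnip, Scg2 and Chga are the abundant genes farthest from 0 among those labelled.

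Where Nkx2.2 binds was measured by the submitters in MIN6 cells and not in these islets. Of 9971 tested genes that the authors' tables list, 26.02% were joined by the authors to at least 1 of 6473 final sites. Among genes that rose, 226 of 494 (45.8%) were joined to a site, against 172 of 468 (36.8%) of those that fell and 2196 of 9009 (24.4%) of those not called. Without mutant 1 these shares were 40.9% and 29.4% of the higher and lower genes. Of the 10 sites with the highest mean log2 CPM in the authors' binding table, from 10.2 for Glp1r to 8.84 for Nkx6-1, among those joined to genes picked by the naming rule, 9 are printed to show what the bound sequence looks like. Each is a window of GRCm38 with 50 bases on either side of the site, plus strand, 5′ to 3′. Capitals mark GAGTG or its reverse complement CACTC, a core that NK2-class homeodomains bind, and GCAAC or GTTGC, part of the X-box that RFX factors bind.
Glp1r: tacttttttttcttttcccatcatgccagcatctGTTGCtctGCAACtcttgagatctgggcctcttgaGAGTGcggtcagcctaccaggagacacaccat
Grin2c: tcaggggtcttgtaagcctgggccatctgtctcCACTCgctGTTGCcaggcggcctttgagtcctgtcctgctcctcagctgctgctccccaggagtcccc
Klf10: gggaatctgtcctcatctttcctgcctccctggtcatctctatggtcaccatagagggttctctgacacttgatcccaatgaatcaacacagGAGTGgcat
Pde4c: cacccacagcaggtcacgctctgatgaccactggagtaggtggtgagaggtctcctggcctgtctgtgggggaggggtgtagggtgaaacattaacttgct
Casr: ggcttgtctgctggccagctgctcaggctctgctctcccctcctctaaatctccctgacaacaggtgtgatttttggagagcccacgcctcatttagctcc
Idh2: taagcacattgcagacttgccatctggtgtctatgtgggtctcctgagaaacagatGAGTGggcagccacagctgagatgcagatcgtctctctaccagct
Wnt9a: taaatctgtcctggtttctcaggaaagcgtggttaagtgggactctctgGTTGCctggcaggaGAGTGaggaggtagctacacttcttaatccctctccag
Ldha: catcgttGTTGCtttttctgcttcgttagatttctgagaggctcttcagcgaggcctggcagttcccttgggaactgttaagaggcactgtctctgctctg
Nkx6-1: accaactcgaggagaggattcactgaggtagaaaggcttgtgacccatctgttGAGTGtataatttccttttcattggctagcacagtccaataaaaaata

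Positions are of GRCm38, and directions are those of the joined gene. Glp1r fell, and its site spanned chr17:30885453-30885553 between genes, nearest to Dnah8. Grin2c rose, and its site spanned chr11:115234041-115234141 in an intron of Tmem104. Klf10 rose, and its site spanned chr15:38409435-38409535 between genes, nearest to Azin1. Pde4c rose, and its site spanned chr8:70723572-70723672 between genes, nearest to Pde4c. Casr rose, and its site spanned chr16:36526799-36526899 in an intron of Casr. Idh2 fell, and its site spanned chr7:80143601-80143701 between genes, nearest to Idh2. Wnt9a rose, and its site spanned chr11:59329869-59329969 in an intron of Wnt9a. Ldha rose, and its site spanned chr7:46835433-46835533 between genes, nearest to Ldha. Nkx6-1 fell, and its site spanned chr5:101432357-101432457 between genes, nearest to Nkx6-1. Of the 9 windows, 6 held GAGTG, 4 held GCAAC, 3 of these held both, and those of Pde4c and Casr held neither.

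Both motifs were chosen after the sequences were examined, were searched on both strands, and can overlap each other by 1 base at most. Over all 6473 final sites, GAGTG was in 40.9% of windows and in 17.9% of windows of the same width 1000 bases away. GCAAC was in 39.8% of windows and in 11.1% of those 1000 bases away, whereas AAGTG, the more usual core of the class, was in 22.7% and 21.8%. Sites of genes that rose and genes that fell held GAGTG about equally often, in 42.9% and 43.0% of windows, and sites of genes not called held it in 42.7%. GCAAC was in 46.0% of the sites of genes that rose, 34.9% of those of genes that fell and 42.3% of those of genes not called. Both motifs stood together in 18.1%, 8.72% and 12.96% of those windows. A match in a window is a description of its letters and says nothing of which protein was bound.

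**Figure D3:**
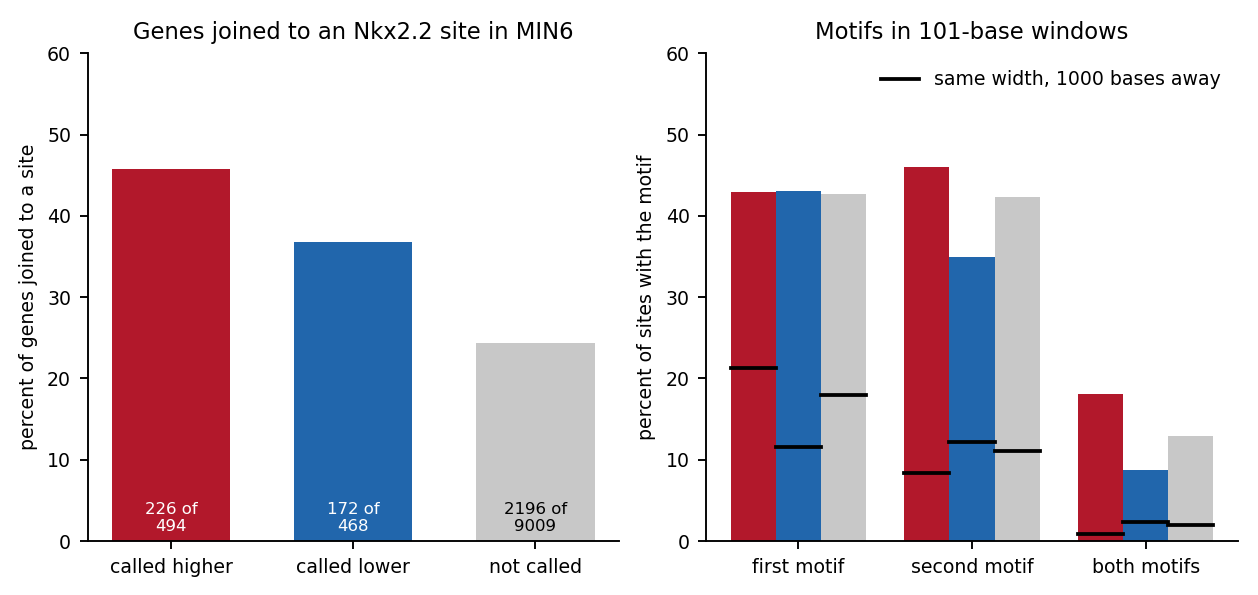
Left, percent of genes joined by the authors to an Nkx2.2 site of MIN6 cells, with counts in the bars; right, percent of the joined sites whose window holds GAGTG (first motif), GCAAC (second motif) or both, with black lines for windows 1000 bases away. Genes that rose were joined most often, 45.8% against 24.4% of genes not called.

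Nkx2-2 itself was not called. It stood at 102 and 88.1 CPM in the controls and 103, 83 and 80.8 CPM in the mutants (log2 fold change -0.10, SE 0.13, adjusted p = 0.680). The libraries of both groups overlapped. A gene-level count cannot show the mutated SD domain, so this value checks only that the transcript was present.

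Among islet genes, no hormone gene was called and 6 of 36 tested transcription factors were. None of 9 hormone genes passed, with a median log2 fold change of -0.19, and 2 had an unadjusted p under 0.05. Iapp, which encodes the amylin co-secreted with insulin, stood at 2888 and 3069 CPM in the controls and 3989, 4577 and 5276 CPM in the mutants (log2 fold change 0.63, SE 0.14, adjusted p = 0.0545); every mutant was above both controls. Gcg, the glucagon precursor of alpha cells, was at 30762 and 39178 CPM in the controls and 31629, 24052 and 21718 CPM in the mutants. Mutant 1 lay between the controls. Without mutant 1, Iapp rose (log2 fold change 0.73, adjusted p = 0.0108) and Gcg fell (log2 fold change -0.61, adjusted p = 0.0394).

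Isl1 and Mnx1 were among the 3 factors that rose, and Nkx6-1, St18 and Insm1 fell. Isl1, a LIM homeodomain factor used by all islet endocrine cells, stood at 105 and 104 CPM in the controls and 224, 196 and 196 CPM in the mutants. Nkx6-1, a homeodomain factor that beta cells need for insulin secretion, was at 205 and 216 CPM in the controls and 132, 108 and 97.2 CPM in the mutants. Neither gene's groups overlapped, and the fitted log2 changes were 0.98 and -0.91 (adjusted p = 0.00504 and 0.0174). Mnx1, a homeodomain factor of beta cells, changed from 14 and 14.7 to 19.5, 24.9 and 24.3 CPM (log2 fold change 0.67, adjusted p = 0.0366). St18 and Insm1, zinc-finger factors of endocrine cells, fell by 0.68 and 0.50 on the log2 scale (adjusted p = 0.00789 and 0.0206). Pdx1, Neurod1, Mafa and Pax6 were not called; Mafa, the factor of mature beta cells, was at 120.1 and 122.7 CPM in the controls and 79.4, 86.2 and 54.8 CPM in the mutants, lower in all 3 mutants, with an adjusted p of 0.0820.

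Of 25 tested genes of glucose sensing and beta-cell maturity, 5 fell and 2 rose, with a median log2 fold change of -0.14. That was 28.0% called, against 7.94% of all genes tested. The receptors for both incretin hormones were among them. Gipr, the receptor for GIP, stood at 63.9 and 85.9 CPM in the controls and 19.3, 16.1 and 14 CPM in the mutants (log2 fold change -2.19, SE 0.18, adjusted p = 0.00414). Glp1r, the receptor for GLP-1, was at 296 and 364 CPM in the controls and 169, 136 and 126 CPM in the mutants (log2 fold change -1.2, SE 0.15, adjusted p = 0.0115). No mutant reached the lower control for either receptor. Pcx, the pyruvate carboxylase that feeds the citric acid cycle, was at 169.98 and 185 CPM in the controls and 90.8, 68.7 and 59.3 CPM in the mutants (log2 fold change -1.28, SE 0.18, adjusted p = 0.0171). Slc30a8, the zinc transporter of insulin granules, and Slc2a2, the glucose transporter, fell by 1.12 and 0.89 on the log2 scale (adjusted p = 0.00953 and 0.0163). Gpr119, a lipid-sensing receptor, rose from 13.7 and 10.8 to 77.5, 44.4 and 43.1 CPM (log2 fold change 2.166, adjusted p = 0.0220), and Casr, the calcium-sensing receptor, rose by 0.54 (adjusted p = 0.0203). Kcnj11 and Abcc8, the subunits of the potassium channel that glucose metabolism closes, had log2 fold changes of 0.04 and 0.08 and were not called.

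Mutant 1 differed from mutants 2 and 3 in a further set of maturity genes. Ucn3, a peptide of mature beta cells, stood at 449 and 452 CPM in the controls and 464, 221 and 191 CPM in the mutants. Trpm5, a cation channel, was at 75.7 and 78.1 CPM in the controls and 46, 14.7 and 14.5 CPM in the mutants. Prlr, the prolactin receptor, was at 945 and 882 CPM in the controls and 945, 485 and 404 CPM in the mutants. In mutants 2 and 3 all of these were below both controls, and in mutant 1 Ucn3 and Prlr were at the control level. Without mutant 1, 11 of 25 members fell and 3 rose, against 18.1% of all genes called in that fit. The added falls included Ucn3 (log2 fold change -1.13, adjusted p = 0.00197), Trpm5 (log2 fold change -2.40, adjusted p = 0.000151), Prlr (log2 fold change -1.04, adjusted p = 0.00433), Sytl4 (log2 fold change -1.20, adjusted p = 0.00112) and Ero1lb (log2 fold change -0.87, adjusted p = 0.00526). Rgs16, a regulator of G protein signalling, stood at 39.5 and 36.2 CPM in the controls and 80.7, 192 and 189.7 CPM in the mutants and rose in the fit without mutant 1 (log2 fold change 2.34, adjusted p = 0.000151). The library left out is the 1 seen to differ in these genes, so calls gained without it are no independent support. Whether the sex of mutant 1 has a part in these differences was not tested.

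Granins and prohormone-processing genes had the highest share called of all lists of 12 or more, 6 of 15, or 40.0%, with 5 higher and 1 lower. These proteins form and fill the dense-core granule. Scg2, the precursor of secretoneurin, was at 6219 and 6292 CPM in the controls and 12299.8, 17034 and 16236 CPM in the mutants (log2 fold change 1.28, SE 0.17, adjusted p = 0.0127). Chga, chromogranin A, moved the other way, at 12541 and 14541 CPM in the controls and 6543, 5976 and 6035 CPM in the mutants (log2 fold change -1.13, SE 0.11, adjusted p = 0.00626). On the per-length FPKM scale Chga was the more abundant of the pair in the controls (9031 and 10522 against 3323 and 3368) and Scg2 in the mutants (6510.4, 9254 and 8889.7 against 4680.1, 4412 and 4485). Vgf, another granule peptide precursor, stood at 18.4 and 35.2 CPM in the controls and 73.6, 127 and 126 CPM in the mutants (log2 fold change 2.02, adjusted p = 0.0442). Pam, which amidates peptides, Chgb and Scg3 rose by 0.93, 0.66 and 0.50 on the log2 scale (adjusted p = 0.0218, 0.0247 and 0.0368). The convertases Pcsk1 and Pcsk2 and the carboxypeptidase Cpe were not called; Pcsk2 fell in the fit without mutant 1 (log2 fold change -0.45, adjusted p = 0.0360).

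Genes of vesicle fusion moved both ways, 7 higher and 5 lower of 70, 17.1% called against 7.94% of all genes tested. Sv2c, a vesicle glycoprotein, stood at 2.69 and 4.53 CPM in the controls and 36, 44.5 and 24.4 CPM in the mutants, and its relative Sv2a at 92.4 and 116 CPM in the controls and 46.1, 41.2 and 48.9 CPM in the mutants. The groups of each did not overlap, with log2 fold changes of 3.27 and -1.2 (adjusted p = 0.00940 and 0.00632). Stxbp5l and Stxbp6, syntaxin-binding proteins, rose by 1.67 and 1.21 on the log2 scale. Rab27b, a granule GTPase, Syt9, a calcium sensor, and Cadps2, a priming factor, rose by 1.42, 1.40 and 1.17, and Cadps, the paralog of the last, fell by 0.67.

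**Figure D4:**
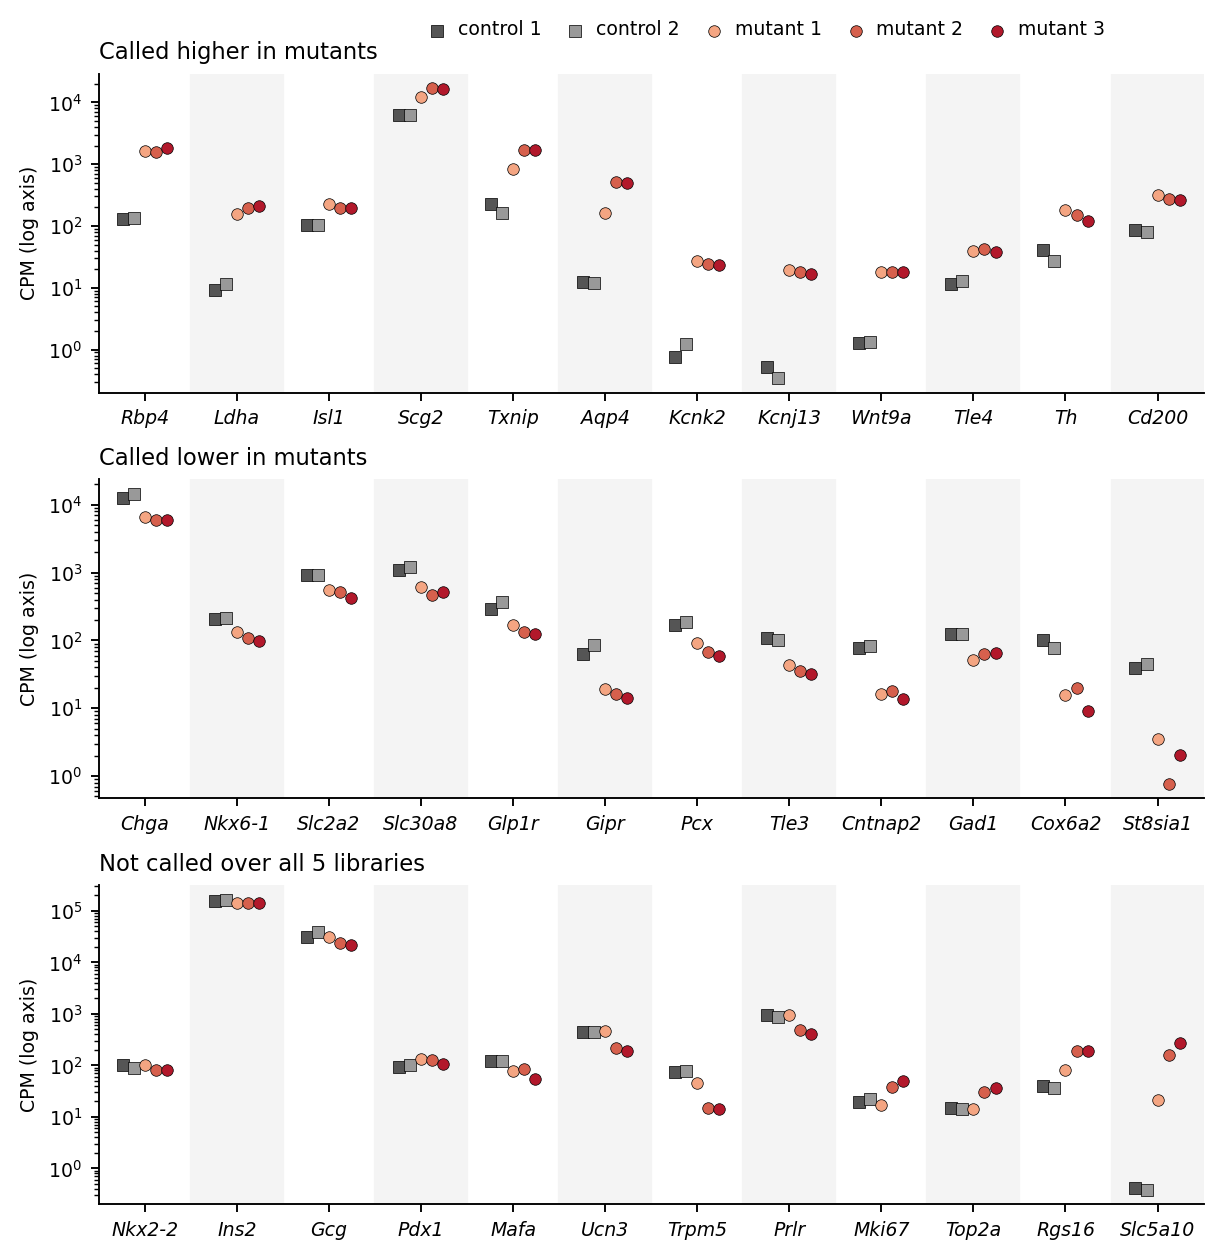
CPM of 36 genes in each of the 5 libraries on log axes, squares for controls and circles for mutants; the upper rows hold genes called higher or lower, and the lowest row genes not called over all 5. In the lowest row, mutant 1 lies with the controls for Ucn3, Prlr, Mki67 and Top2a.

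Among the genes that beta cells keep low, Ldha rose steeply and the other 24 tested members of the disallowed list were not called. Ldha, lactate dehydrogenase A, was at 9.34 and 11.6 CPM in the controls and 155, 197 and 208 CPM in the mutants (log2 fold change 4.15, SE 0.19, adjusted p = 0.000868); each mutant exceeded the higher control by a wide margin. Its partner subunit Ldhb stood at 9.82 and 11.8 CPM in the controls and 6.65, 5.99 and 4.78 CPM in the mutants and fell by 0.90 on the log2 scale (adjusted p = 0.0391). Slc16a1, the lactate and pyruvate carrier of the same list, was not called. No other of 30 tested glycolysis genes passed over all 5 libraries. Without mutant 1, 8 of 29 rose and 4 fell, where 9.13% of all genes in that fit rose and 8.93% fell. Its rises included Pdk1, a kinase that inhibits pyruvate dehydrogenase (log2 fold change 2.73, adjusted p = 0.000167). Also higher there were the enolase Eno1 (log2 fold change 1.32, adjusted p = 0.000732) and the pyruvate kinase Pklr (log2 fold change 1.25, adjusted p = 0.00230). Calls gained by leaving out mutant 1 are no independent support.

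Of 15 tested genes used as marks of beta-cell dedifferentiation or immaturity, 2 rose and none fell, with a median log2 fold change of 0.61. That was 13.3% called, against 7.94% of all genes tested. Rbp4, the plasma retinol carrier, which also marks delta cells, was at 128 and 134.1 CPM in the controls and 1641, 1577 and 1841 CPM in the mutants (log2 fold change 3.68, SE 0.12, adjusted p = 0.000382). In FPKM, Rbp4 stood at 208 and 215 in the controls, below Chgb (881 and 832), and at 2678, 2636 and 3046 in the mutants, above Chgb (1303, 1301 and 1527). Aldh1a3, a retinaldehyde dehydrogenase, rose from 1.56 and 0.69 to 13.1, 20.5 and 25.1 CPM (log2 fold change 4.13, adjusted p = 0.00940). Slc5a10, a sugar transporter, varied widely within the mutants, at 0.425 and 0.388 CPM in the controls and 21.5, 163 and 279 CPM in the mutants, and was not called (log2 fold change 8.56, adjusted p = 0.0644). Gast, the gastrin precursor, was at 0.283 and 0.215 CPM in the controls and 0.698, 3.56 and 4.75 CPM in the mutants and was not called either. Without mutant 1, 6 of 15 rose, where 9.13% of all genes in that fit rose. They included Slc5a10 (log2 fold change 9.07, adjusted p = 0.00520) and Gast (log2 fold change 4.04, adjusted p = 0.00225), both named after their values were seen. Mutant 1 was the lowest mutant for both, so these calls without it are no independent support.

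Fatty acid genes fell without a rise, 5 of 37, or 13.5%, where 3.87% of all genes tested fell. Lpl, lipoprotein lipase, was at 223 and 253 CPM in the controls and 133, 111 and 106 CPM in the mutants (log2 fold change -1.03, adjusted p = 0.00882), and Scd2, a fatty acid desaturase, at 390.0 and 431 CPM in the controls and 269, 235 and 204 CPM in the mutants (log2 fold change -0.80, adjusted p = 0.0225). Elovl5, Cpt1c and Pnpla2 fell by 0.49, 0.64 and 0.40 on the log2 scale. Cholesterol genes moved both ways, with Idi1, Sqle and Sc4mol of the synthesis pathway higher by 0.40 to 0.65 and the regulator Srebf1 lower by 0.60; of 26 tested, 3 rose and 2 fell. In the citric acid cycle and its shuttles, Gpd1, the cytosolic glycerol phosphate dehydrogenase, stood at 25.6 and 31.9 CPM in the controls and 65.5, 71.9 and 85.3 CPM in the mutants (log2 fold change 1.37, adjusted p = 0.00809). Idh2 and Pcx fell in the same list of 38, in which 2 genes rose.

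Transcripts of the mitochondrial genome were lower in the mutants, a group that was picked after values were seen. All 13 mitochondrially encoded protein genes had negative fold changes and 7 fell, with a median log2 fold change of -0.52. Their summed level was 52620 and 45480 CPM in the controls and 34820, 32350 and 36750 CPM in the mutants, with no overlap. ND2, a subunit of complex I, was at 2265 and 1937 CPM in the controls and 1438, 1054 and 1030.2 CPM in the mutants (log2 fold change -0.84, adjusted p = 0.0437). CYTB of complex III was at 5798 and 4910.3 CPM in the controls and 3794, 3494 and 3699 CPM in the mutants (log2 fold change -0.55, adjusted p = 0.0433). Nuclear-encoded respiratory chain genes did not follow: of 80 tested, 2 rose and 2 fell, with a median of 0.08. Cox6a2, a tissue-restricted subunit of complex IV, was the exception in size, at 100.3 and 78.1 CPM in the controls and 15.52, 19.8 and 9.2 CPM in the mutants (log2 fold change -2.59, adjusted p = 0.0124); its gene lies within the annotated span of Itgad, which also fell, so reads of the pair may be shared. Ndufa1 and Ndufa4 rose by 0.57 and 0.44.

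Of 70 tested potassium channel genes, 10 rose and 1 fell, 15.7% called against 7.94% of all genes tested. Kcnj13, an inward rectifier, was at 0.519 and 0.345 CPM in the controls and 19.4, 17.7 and 16.8 CPM in the mutants (log2 fold change 5.37, SE 0.19, adjusted p = 0.000484). Kcnk2, a leak channel of the K2P family, was at 0.755 and 1.21 CPM in the controls and 27.1, 24.4 and 23.4 CPM in the mutants (log2 fold change 4.65, SE 0.20, adjusted p = 0.000868). The 3 mutants were close to each other and far above both controls for either channel. Kcnab3, an accessory subunit, rose from 7.79 and 7.41 to 32.8, 59 and 55.5 CPM. Kcnk9, Kcnn4, Kcnc4 and Kcne2 rose by 2.11 to 3.03 on the log2 scale from control means at or below 1.11 CPM, and Kcng3 fell by 2.30. Kcnk3, Kcnj6 and Kcnk1 rose by 0.84, 0.81 and 0.37.

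Other channel classes changed in few members. Of 32 voltage-gated calcium and sodium channel genes, Scn3a and its partner Scn3b rose by 1.35 and 0.87, and 2 fell, among them Cacna1e, a calcium channel, by 1.65. Scn3a, a sodium channel expressed in beta cells, stood at 36.1 and 38.2 CPM in the controls and 81.9, 104 and 98.5 CPM in the mutants (log2 fold change 1.35, adjusted p = 0.00477). Among 38 chloride, proton-sensing and TRP channels, Accn2, an acid-sensing channel, rose from 24.1 and 24.5 to 91.1, 98.8 and 117 CPM (log2 fold change 2.08, adjusted p = 0.00150), and Trpc7 rose by 2.14.

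In cyclic nucleotide signalling, 7 of 45 genes rose and 1 fell, and 6 of the 7 encode phosphodiesterases, which break down cAMP or cGMP. The share called was 17.8%, against 7.94% of all genes tested. Pde6c, known from cone photoreceptors, was at 0.33 and 0.56 CPM in the controls and 17.8, 18.6 and 19 CPM in the mutants (log2 fold change 5.34, SE 0.20, adjusted p = 0.000484). Pde3a, a cAMP phosphodiesterase, stood at 6.94 and 6.72 CPM in the controls and 17.1, 24.2 and 29.1 CPM in the mutants (log2 fold change 1.78, adjusted p = 0.0159). Mutant 1 was the lowest mutant for Pde3a and still above both controls. Pde11a, Pde4c, Pde4d and Pde1b also rose, with the adenylate cyclase Adcy3, and Pde1c fell by 0.62. Of 44 G protein and RGS genes, 4 rose and 4 fell; Rgs2 fell from 196 and 208 to 102, 63.1 and 90.9 CPM (log2 fold change -1.25, adjusted p = 0.0242) and Rgs8 rose by 2.27.

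Corepressors of the Groucho family, which NK2-class and other factors recruit, moved in opposite directions. Tle3 was at 107 and 101.3 CPM in the controls and 43.5, 35.8 and 32.5 CPM in the mutants (log2 fold change -1.49, SE 0.13, adjusted p = 0.00456). Tle4 was at 11.6 and 12.7 CPM in the controls and 39.3, 42.8 and 37.6 CPM in the mutants (log2 fold change 1.71, SE 0.10, adjusted p = 0.00129). Neither overlapped between groups. Ctbp2 rose by 0.65, and the other 25 of 28 tested corepressor and DNA methylation genes, including Dnmt3a, Dnmt1, Hdac1 and Tle2, were not called.

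In a list of homeobox genes outside the islet list, 2 of 43 tested rose and 1 fell, 6.98% called against 7.94% of all genes tested. That list holds no Rhox or Meox genes. Rhox2a, of a cluster of similar copies on the X chromosome, had no count in either control and a mean of 0.878 CPM in the mutants. That was at least 6.48-fold higher against a floor of 3 counts per library. Meox1 fell by 0.71 on the log2 scale, and both genes were named after their values were seen. Barx2, a homeodomain factor of muscle and epithelium, was at 0.236 and 0.0862 CPM in the controls and 9.81, 28.1 and 21.8 CPM in the mutants (log2 fold change 6.93, SE 0.79, adjusted p = 0.00997). Barhl1, a neural homeodomain factor, stood at 1.04 and 0.69 CPM in the controls and 3.28, 3.32 and 3.51 CPM in the mutants. Of 47 SOX, GATA, KLF, T-box and forkhead genes, Klf10 and Klf11 rose and Klf13 fell by 0.75. Nuclear receptors included 3 steroid-receptor relatives near absence in the controls: Pgr, the progesterone receptor, at 0.0944 and 0.646 CPM in the controls and 12.6, 13.9 and 7.83 CPM in the mutants (log2 fold change 4.89, adjusted p = 0.0145), Esr1, the estrogen receptor alpha, at 0.613 and 0.388 CPM in the controls and 2.71, 3.16 and 2.1 CPM in the mutants (log2 fold change 2.40, adjusted p = 0.0174), and Esrrb at 0.0944 and 0.0431 CPM in the controls and 1.6, 2.02 and 0.906 CPM in the mutants (log2 fold change 4.37, adjusted p = 0.0171). Pgr and Esr1 were above both controls in mutants 2 and 3 as well as in mutant 1. Of that list of 44, 5 rose and 3 fell, among the latter the receptors for retinoic acid, Rara, and vitamin D, Vdr. In the bHLH list of 36, Bhlhe40 rose by 1.78 and Neurod6, Olig1 and Tcf4 fell; Neurod6 and Olig1 are genes of the forebrain and glia lists described below.

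Wnt pathway genes included a ligand, a receptor, a coreceptor and secreted inhibitors among their 5 calls of 43. That was 11.6% called, against 7.94% of all genes tested. Wnt9a, a ligand, was at 1.27 and 1.34 CPM in the controls and 18, 17.8 and 18.1 CPM in the mutants (log2 fold change 3.78, SE 0.11, adjusted p = 0.000345), and its 3 mutant values differed by under 1 CPM. Sfrp2, a secreted antagonist, was at 0.189 and 0.474 CPM in the controls and 7.14, 11 and 7.93 CPM in the mutants (log2 fold change 4.67, adjusted p = 0.00483). The receptor Fzd6 rose from 9.3 and 6.03 to 28, 42.7 and 28.9 CPM (log2 fold change 2.12, adjusted p = 0.0163), and the coreceptor Lrp5 fell from 38.3 and 36.9 to 13.8, 14.9 and 11 CPM (log2 fold change -1.51, adjusted p = 0.00494). Frzb, an inhibitor, fell by 0.49.

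In the TGF-beta and BMP pathway (45 tested) the ligand Bmp2 and the receptors Bmpr1b and Tgfbr3 rose by 2.65, 3.10 and 1.23, and Tgfbr1 and Fstl1 fell by 0.48 and 0.42. Of the growth factor receptors, Egfr stood at 20.3 and 21.4 CPM in the controls and 6.32, 4.29 and 7.17 CPM in the mutants (log2 fold change -1.81, adjusted p = 0.00853), Igf1r at 129 and 133 CPM in the controls and 79.1, 77.5 and 63.6 CPM in the mutants (log2 fold change -0.84, adjusted p = 0.0112), and Fgfr1 fell by 0.56. Fgf12, Dusp6 and Igfbp5 of the same list of 36 rose by 1.2, 1.14 and 0.81. Notch genes gave 1 rise, Maml2, and 1 fall, Dner, of 25, and none of 12 hedgehog genes was called. The Notch share, 8.0%, was near the 7.94% of all genes tested. Axon guidance genes rose in 5 and fell in 4 of 65 cases: Ephb3, Plxna4, Sema3c, Ntn3 and Unc5c were higher by 0.88 to 2.67, and Plxna2, Sema6b, Robo2 and Rgmb lower by 0.51 to 0.78.

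Integrin and collagen genes fell in part and did not rise. Integrins had 7 falls and no rise in 28 tested, and the same 7 fell without mutant 1. Itgb8, an activator of TGF-beta, was at 15.2 and 17 CPM in the controls and 5.17, 6.27 and 5.04 CPM in the mutants (log2 fold change -1.55, adjusted p = 0.00472). Itgav and Itga6, chains that bind matrix, fell by 0.53 and 0.53. Itga2 stood at 3.11 and 3.75 CPM in the controls and 0.369, 0.405 and 0.652 CPM in the mutants (log2 fold change -2.83, adjusted p = 0.00853). Itgam, Itgax and Itgad, which leukocytes carry, fell by 1.26, 1.09 and 2.73. The annotated span of Itgad holds Cox6a2, which also fell, so reads of Itgad may be shared with it. Collagens and laminins fell in 4 of 44 cases and rose in none, with a median of -0.47, and without mutant 1 in 12 of 44. Of all genes tested, 3.87% fell over all 5 libraries and 8.93% without mutant 1. Col6a3, a beaded-filament collagen, was at 15.1 and 18 CPM in the controls and 6.28, 5.5 and 4.24 CPM in the mutants (log2 fold change -1.63, adjusted p = 0.00833), and Col4a1, of basement membrane, at 297 and 265 CPM in the controls and 207, 171 and 150.0 CPM in the mutants (log2 fold change -0.67, adjusted p = 0.0490). Fibroblast, stellate and pericyte markers summed to 736 and 766 CPM in the controls and 593, 581 and 504 CPM in the mutants; their part in the matrix result was not tested. Cadherins and protocadherins (90 tested) had 2 rises and 3 falls, with Cdh1, the epithelial cadherin, higher by 0.43. Their share called, 5.56%, was below the 7.94% of all genes tested. Claudin and tight-junction genes (22) had 1 rise, Cldn23, and 2 falls, Tjp3 among them, and of 22 tetraspanins Tspan33 rose by 1.19.

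Glycosyltransferases, which build the sugar chains of proteins and lipids, were called in 18 of 89 cases, 8 higher and 10 lower. That was 20.2%, against 7.94% of all genes tested. The sialyltransferase St8sia5 was at 19 and 21.2 CPM in the controls and 6.61, 7.32 and 7.57 CPM in the mutants (log2 fold change -1.49, adjusted p = 0.00290) and St6gal1 at 103 and 115 CPM in the controls and 43.2, 45.3 and 58.6 CPM in the mutants (log2 fold change -1.15, adjusted p = 0.0108). St3gal1 and B3galt2 fell by 1.04 and 0.94, and Fut4, Hs6st3, Gcnt2 and St8sia3 rose by 0.82 to 1.19. Amino acid transporters fell in 7 and rose in 2 of 38 cases; Slc7a2, a cationic amino acid transporter, was at 723 and 764 CPM in the controls and 529.5, 434 and 469.8 CPM in the mutants (log2 fold change -0.64, adjusted p = 0.0256), and Slc1a1, a glutamate transporter, rose from 1.23 and 2.33 to 10.4, 17.4 and 17.2 CPM (log2 fold change 3.06, adjusted p = 0.0120). Of the 7 falls, 2 were Slc1a2 and Slc1a3, members of the astrocyte list. Zinc transporters gave 1 rise, Slc39a11, and 2 falls, Slc30a8 and Slc39a10, of 19, and of 23 cytochrome P450 genes Cyp4f39 and Cyp1b1 fell. The cytochrome P450 share, 8.7%, was near the 7.94% of all genes tested.

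Neuronal genes that islet cells share with neurons moved both ways, 5 higher and 13 lower of 77 tested. The share called was 23.4%, against 7.94% of all genes tested. Mapt, the microtubule protein tau, was at 29.2 and 30.4 CPM in the controls and 114, 121 and 93.7 CPM in the mutants (log2 fold change 1.87, SE 0.13, adjusted p = 0.00246). Th, the first enzyme of catecholamine synthesis, stood at 41.4 and 27.2 CPM in the controls and 183, 151 and 122 CPM in the mutants (log2 fold change 2.15, adjusted p = 0.0120), and Ddc, the next enzyme, fell from 387 and 308 to 226, 164 and 194 CPM (log2 fold change -0.83, adjusted p = 0.0370). Gad1, which makes GABA, was at 123.1 and 126 CPM in the controls and 51.3, 63 and 66.2 CPM in the mutants (log2 fold change -1.05, adjusted p = 0.00771), and Cntnap2, an adhesion protein of axons, at 77.5 and 84.3 CPM in the controls and 16.3, 18.3 and 13.9 CPM in the mutants (log2 fold change -2.33, adjusted p = 0.00114). Groups of these genes did not overlap.

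Of the 13 falls, 5 belonged to the forebrain list, including Slc17a7, Gabrb2, Gria1 and Camk2a. Slc17a7, the glutamate transporter of cortical synaptic vesicles, was at 3.21 and 4.44 CPM in the controls and 0, 0 and 0.0362 CPM in the mutants. Camkv, a kinase-like protein of forebrain neurons, was listed at 0 in all mutants and at 1.75 and 2.93 CPM in the controls, at least 19.9-fold higher against a floor of 3 counts per library. Neurod6, a factor of cortical pyramidal neurons, was at 0.519 and 0.905 CPM in the controls and listed at 0 in all mutants. All 11 tested genes of the list of 16 fell, and 7 of the 16 had no count in any mutant. Among 12 astrocyte markers, 4 fell, including Slc1a2, Slc1a3 and Gfap, and Aqp4 rose. Among 14 oligodendrocyte markers 5 fell, including Mobp, Olig1, Gpr17 and Mag. The 3 lists together had 20 falls in 30 tested genes, and 18 of the 20 had a mutant mean under 1 CPM, as 87 of the 596 lower genes did. Calcium-calmodulin genes rose in 3 of 30 cases, Necab2, Calb1 and Ncald, by 0.45 to 0.69 on the log2 scale, and fell in 5, of which Camkv, Camk2a and Hpca are of the forebrain list. Without mutant 1, 8 of these 30 genes rose and 6 fell, against 9.13% and 8.93% of all genes in that fit. Schwann and neural crest markers rose in 1 of 25 cases, Th, and fell in 4, all of them of the glia lists. The part that brain transcripts in the control libraries have in the falls of any list was not tested.

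Cilia and axonemal genes rose in 8 of 79 cases and fell in 1, 11.4% called against 7.94% of all genes tested. Members of this list, Ccdc154 among them, were chosen with earlier results of these data known. Ccdc154 was listed at 0 in both controls and at 9.24, 4.98 and 5.65 CPM in the mutants, at least 48.9-fold higher against a floor of 3 counts per library. Dnahc9, a heavy chain of axonemal dynein, was at 25 and 20.2 CPM in the controls and 133, 164 and 198 CPM in the mutants (log2 fold change 2.87, SE 0.21, adjusted p = 0.00406). Ccdc67, also called Deup1, which builds centrioles in multiciliated cells, stood at 0.802 and 0.345 CPM in the controls and 5.87, 7.69 and 6.05 CPM in the mutants (log2 fold change 3.51, adjusted p = 0.00729). Ccdc13 and Ak8 rose by 7.08 and 2.63 on the log2 scale. Smaller rises, of 0.35 to 0.59, were those of Cep290, Rsph3a and Rsph3b, the last pair being near-identical copies whose reads may be split. Foxj1, a regulator of motile cilia, was not called.

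Stress lists were called above the 7.94% of all genes tested, with 20.8% of immediate early, 16.7% of interferon and 12.1% of endoplasmic reticulum stress genes, and ribosomal and proteasome lists below it. Txnip, a thioredoxin inhibitor induced by glucose, was at 229 and 165 CPM in the controls and 836, 1693 and 1685 CPM in the mutants (log2 fold change 2.84, SE 0.39, adjusted p = 0.0171); mutant 1 was between the controls and the other mutants. Of 33 endoplasmic reticulum stress genes, Creld2, Derl3 and Ppp1r15a also rose, by 1.00, 0.86 and 0.52, whereas Hspa5, the main chaperone, at 1813 and 1755 CPM in the controls and 2884, 2011 and 1578 CPM in the mutants, and Ddit3 were not called. Cytosolic ribosomal protein genes gave 2 rises in 78, and all 78 had positive fold changes, with a median log2 fold change of 0.19. Their summed level was 14212 and 14735 CPM in the controls and 14959, 15363 and 18963 CPM in the mutants, highest in mutant 3, and the median was 0.08 without mutant 3. Mitochondrial ribosomal (75) and proteasome (37) genes gave no call. Antioxidant genes gave 1 rise and 3 falls in 33, the falls being Hmox1, Gclm and Gpx4. Immediate early genes rose in 4 of 24 cases, Klf10, Myc, Sik1 and Nr4a2, and fell in 1, Ier5, by 0.67 on the log2 scale. Klf10 was at 17.2 and 16.6 CPM in the controls and 40.1, 57.4 and 79.9 CPM in the mutants (log2 fold change 1.81, adjusted p = 0.0287). Interferon and antigen-presentation genes fell in 5 of 36 cases, with Oas2, Oasl2, Tapbp, Irf9 and Irf1 lower by 0.42 to 2.09, and Usp18 rose by 1.02.

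Proliferation genes set mutant 1 apart from mutants 2 and 3. None of 46 tested was called over all 5 libraries, with a median log2 fold change of 0.74. Without mutant 1, 30 of 46 rose, with a median of 1.03, where 9.13% of all genes in that fit rose. The library left out is the 1 that differed in these genes, so these calls are no independent support. Mki67, the standard mark of cycling cells, was at 19.7 and 22.4 CPM in the controls and 17.1, 39 and 50.2 CPM in the mutants. Top2a, a topoisomerase of dividing cells, was at 14.9 and 14.5 CPM in the controls and 14, 30.2 and 35.9 CPM in the mutants. For both genes mutant 1 was below the lower control and mutants 2 and 3 were above the higher one. Without mutant 1 they rose by 1.08 and 1.17 on the log2 scale (adjusted p = 0.00972 and 0.00280). None of 31 genes of D cyclins, CDK inhibitors and p53 targets was called over all 5.

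Markers of the other cells of the islet and pancreas were called in shares that differed by list, 30.8% for delta cells and 25.9% for macrophages and leukocytes against 7.94% of all genes tested. Delta-cell markers rose in 3 of 13 cases, Rbp4 and O3far1 among them, and fell in 1, while Sst itself, at 2902 and 1919 CPM in the controls and 3215, 4777 and 3219.6 CPM in the mutants, and Hhex were not called. O3far1, a fatty acid receptor also named Ffar4, stood at 8.73 and 11.1 CPM in the controls and 31.5, 39.2 and 40.7 CPM in the mutants (log2 fold change 1.91, adjusted p = 0.00456). Alpha-cell markers gave 2 rises, Kctd8 among them, and 1 fall, Slc7a2, in 17. Of 9 PP- and epsilon-cell markers, Cd200 rose from 86.7 and 80.9 to 319, 271 and 267 CPM (log2 fold change 1.77, adjusted p = 0.00181) and Arg1 by 1.85, with Ppy at 3662 and 3384 CPM in the controls and 3938, 2768 and 4174 CPM in the mutants and not called. None of 46 acinar markers was called, with a median of -1.22. Without mutant 3, the mutant with the highest summed acinar level, 10 fell, where 506 of all 15177 genes in that fit fell. The library left out is the mutant nearest the controls in these markers, so these falls are no independent support. Endothelial (30) and erythroid (7) markers gave no call, fibroblast markers (32) 2 falls, Gfap and Bgn, and ductal markers (26) 2 rises and 1 fall, with Muc4 at 46 and 52.7 CPM in the controls and 174, 147 and 119.6 CPM in the mutants (log2 fold change 1.57, adjusted p = 0.00853) and Krt7 at 177 and 169 CPM in the controls and 107, 112 and 115 CPM in the mutants (log2 fold change -0.63, adjusted p = 0.00761). Adipocyte and muscle markers (5) gave 1 rise, Acta1. Macrophage and leukocyte markers fell in 6 of 27 cases, among them Csf1r at 16.3 and 18.9 CPM in the controls and 8.87, 9.67 and 8.37 CPM in the mutants (log2 fold change -0.97, adjusted p = 0.00880), and C1qc, at 7.74 and 8.02 CPM in the controls and 4.56, 4.05 and 3.99 CPM in the mutants. C1qa, which encodes another chain of the same complement protein, rose from 24 and 27 to 58, 108 and 79 CPM (log2 fold change 1.68, adjusted p = 0.0277). The summed level of these leukocyte markers was 371 and 399 CPM in the controls and 266, 322 and 920 CPM in the mutants.

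**Figure D5:**
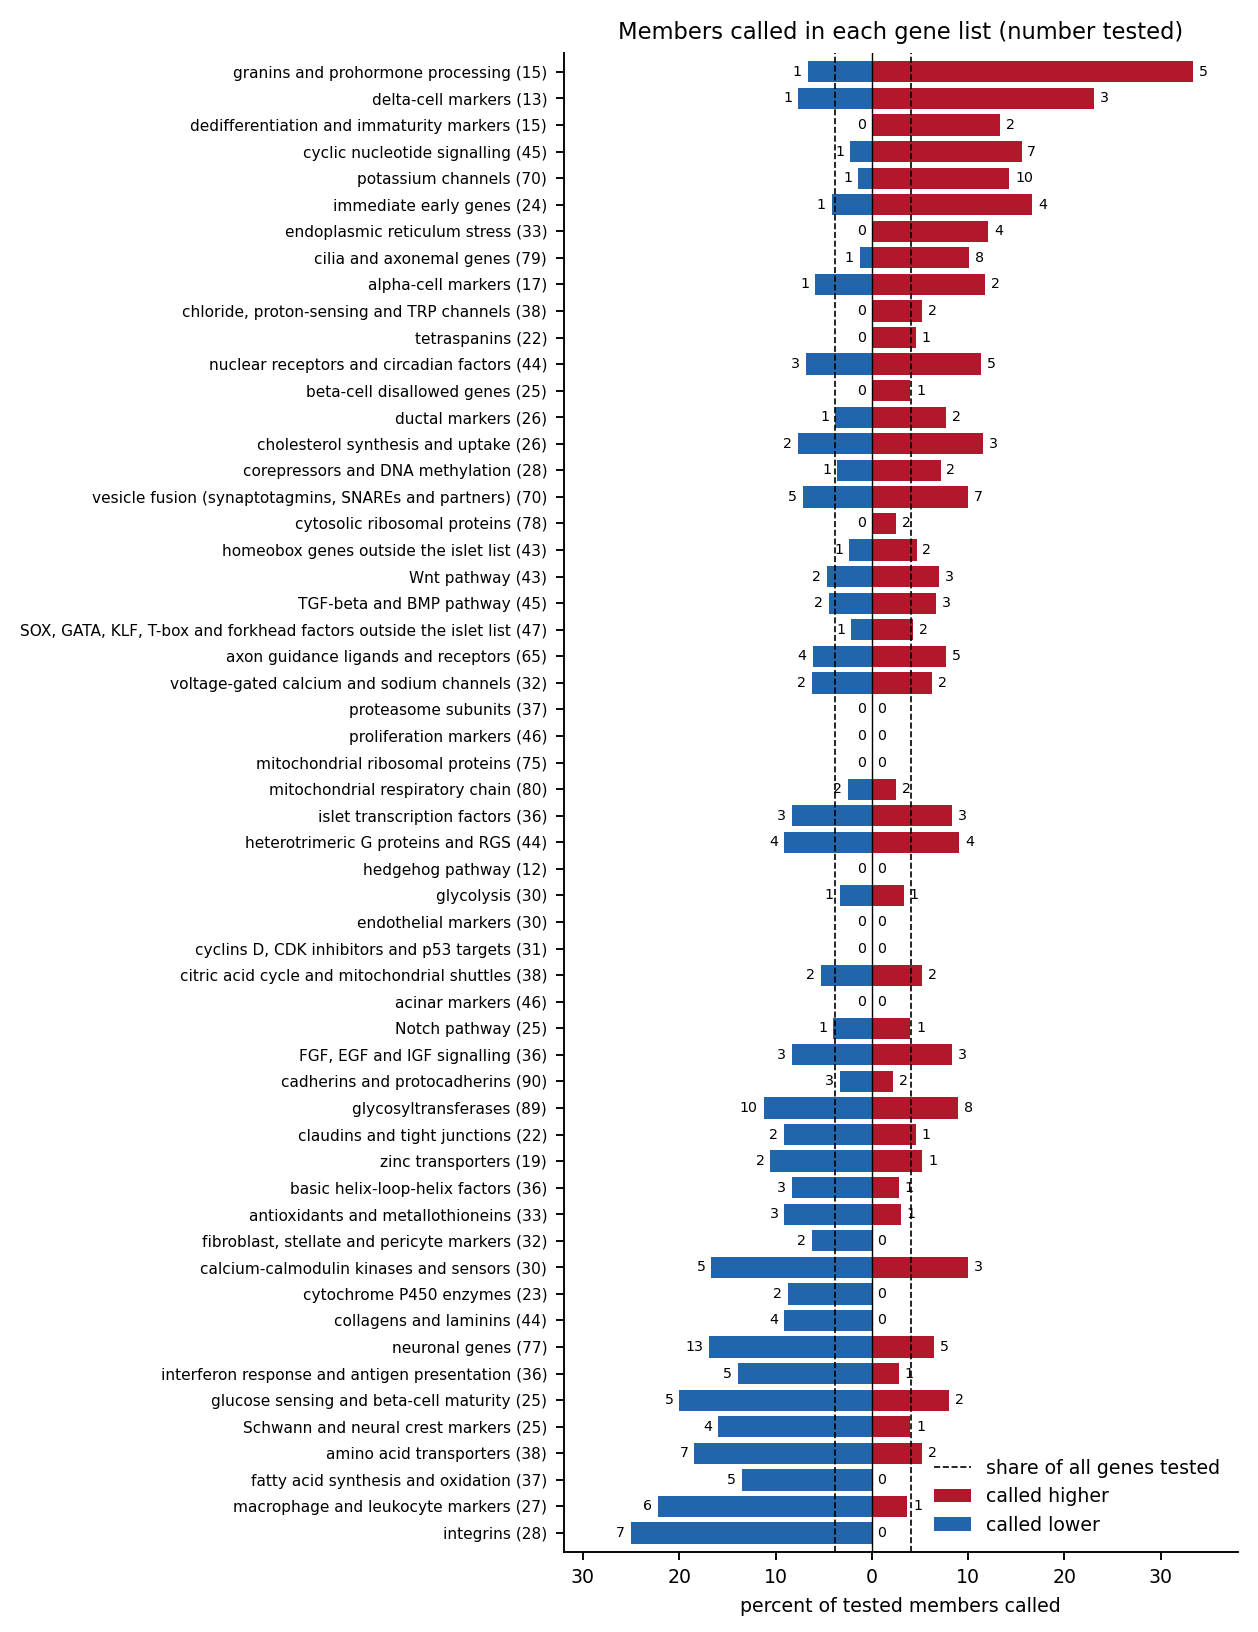
Percent of tested members called higher (red, right) and lower (blue, left) in each list of 12 or more tested genes, with the number called beside each bar and the number tested in parentheses. Dashed lines mark the shares of all genes tested, 4.07% higher and 3.87% lower; granins lie farthest to the right of these and integrins farthest to the left.

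Several of the largest changes were in genes of no pathway list. Aqp4, a water channel that is also a member of the astrocyte list, was at 12.6 and 12 CPM in the controls and 163, 518 and 495 CPM in the mutants (log2 fold change 4.99, SE 0.66, adjusted p = 0.0207). Hspa12a, a distant heat-shock protein relative, was at 79 and 77.8 CPM in the controls and 10.9, 7.6 and 9.2 CPM in the mutants (log2 fold change -3.09, SE 0.15, adjusted p = 0.000868). Gabbr2, a subunit of the GABA-B receptor, was at 32.3 and 40.5 CPM in the controls and 5.79, 3.07 and 4.78 CPM in the mutants (log2 fold change -3.0, adjusted p = 0.00497). Mlph, the melanophilin that links Rab27 to myosin, was at 16.3 and 16.6 CPM in the controls and 0.698, 1.17 and 1.05 CPM in the mutants (log2 fold change -4.07, adjusted p = 0.00114). The groups of these 4 genes did not overlap. Ust and Gstm2 fell by 3.26 and 2.95 on the log2 scale. Among abundant genes, Prss53 was at 983 and 1131 CPM in the controls and 454, 491 and 509 CPM in the mutants (log2 fold change -1.12, adjusted p = 0.00502) and Scgn, the calcium-binding secretagogin of islet cells, at 292 and 289.9 CPM in the controls and 445, 437 and 427 CPM in the mutants (log2 fold change 0.58, adjusted p = 0.0112). Itm2c, Baiap3, Nucb2 and Hap1 rose by 0.55 to 0.85. Of 258 called genes that the naming rule picked, 10 were also called in all 13 alternative analyses, those without either control included: Ldha, Rbp4, Tle4, Kcnj13, Kcnk2, Pde6c, Wnt9a, Hspa12a, Mlph and Cntnap2.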

How the data were processed

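The authors deposited whole-number read counts per gene for all adult islet libraries, and FPKM, which they scaled by transcript length and depth. RNA was total RNA made into Illumina TruSeq libraries, per the labels' protocols. The build mm10 and the tools STAR, Cufflinks, DESeq2, edgeR 3.20.9, limma 3.34.9 and bedtools 2.17.0 are named, with no role, per the submitters' processing notes. The counting rule and strand setting are not given in the sources used here. The authors' deposited log2 fold changes and p-values for this comparison were read but are not printed. The deposited Nkx2.2 binding table gives log2 CPM around each site, averaged by the authors over 2 replicates.

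Only the 5 columns of 8-week islets were fitted, with edgeR 4.0.16 in R 4.3.3: filterByExpr, TMM scaling, the quasi-likelihood F test without a replicate block, and Benjamini-Hochberg adjustment over 15413 genes at 0.05. An SE is that of the fitted log2 fold change. Total counts were 22034738 to 26959761 per library, where 10 counts are under 1 CPM, so low genes carry the larger errors. In simulated data of this design, with 15254 genes, 69.0% of genes changed 2-fold and 91.0% of genes changed 4-fold were recovered. Of the calls there, 12.6% were false, above the 0.05 set by the adjusted p. The simulation changed 100 genes by each fold and gave all libraries of a group the same mean. It held no library that stood apart as mutant 1 did, and rates for genes of low count were not worked out. The 60 gene lists and the members were chosen with earlier results of these data known. Genes that may be named are the members of the hormone, transcription factor, glucose sensing and granin lists, up to 6 called members per direction of each other list, the 12 largest and the 12 most abundant changes per direction, and Nkx2-2. Named outside that rule, after their values were seen, are genes given as not called in other lists, genes called only without mutant 1, sex-linked, mitochondrial and brain genes, and the neighbouring pairs. Some genes that this rule picks, and 1 site, are not reported here. Windows were cut from GRCm38 and gene positions taken from GENCODE M21. Alternatives were DESeq2 1.42.0, RLE factors, total counts, 2 other filters, glmTreat at 1.5-fold, limma-voom 3.58.1, a replicate block and leaving out each library.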

Additional observations from a re-analysis of the deposited data

How the results depend on the processing

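Calls numbered 1224 in the analysis reported, 2041 with DESeq2, 757 with a replicate block and 257 when glmTreat tested against a change of 1.5-fold, and 37 to 2765 when 1 library was left out, fewest without control 2 and most without mutant 1. Of the 757 called with the block, 636 were among the 1224. Deviations of same-numbered libraries from their group means correlated at -0.084 and -0.126. The deviations of the 2 controls mirror each other, so these values are not independent and cannot exclude pairing. RLE factors (1201), a filter of 1 CPM (1317), every gene with a count (1229), limma-voom (1112) and total counts (1361) gave counts within 1.5 times of 1224. Leaving out 1 library gave 40.9% to 80.0% of higher genes and 27.8% to 43.8% of lower genes joined to an Nkx2.2 site, and the extremes above 50% rest on 24 or fewer genes. Of the 258 called genes that the naming rule picked, DESeq2 called 257, the block 148, glmTreat 83, the fit without mutant 1 255, and the fit without mutant 2 98. Without control 1, 15 of 256 were called, and without control 2, 10 of 257. None changed direction in any of these, but Nkx2-2, not called, had log2 fold changes from -0.2108 without mutant 1 to 0.0109 without control 1. With 2 controls the spread of the control group is poorly known, which limits every call here, and the cause of each lost call was not tested.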

Other observations

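Genes called in the mutant islets were in places close neighbours on the chromosome. Among 1169 called genes with a position in GRCm38, 132 pairs lay within 50000 bases of each other or overlapped, and 88 of these pairs changed in the same direction. The pairs Gm6976 with Ccdc162, and Tcf24 with Gm10567, had identical positions and are names of the same gene. Of the 18 pairs in which both genes changed at least 4-fold, 17 changed the same way. Those 17 included neighbouring Rhox copies, Slc6a20b with Slc6a20a, and genes with overlapping spans: Itgad and Cox6a2, Ctnna3 and Lrrtm3, Dpp6 and Speer4b. No test was made of these counts, and no share for neighbouring genes in general was worked out. Gene pairs with overlapping spans or near-identical sequence can share reads.

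Rbp4 and Pde6c lie 7499 bases apart on chromosome 19 and rose by 3.68 and 5.34 on the log2 scale. Mlph and Rab17, a pair with roles in membrane traffic, lie 6990 bases apart on chromosome 1, and their log2 fold changes were -4.07 and -2.69. Ccdc13 and Higd1a, 9101 bases apart on chromosome 9, had log2 fold changes of 7.08 and 2.88. Omd and Ogn, which encode small leucine-rich proteoglycans, lie 15223 bases apart on chromosome 13 and rose by 4.74 and 2.51. The amino acid transporters Slc6a20b and Slc6a20a, adjacent on chromosome 9, rose by 3.12 and 3.91 and are similar copies whose reads may be split. On the X chromosome, neighbouring copies of the Rhox2 and Rhox3 homeobox genes rose together, and the counting could split reads among these near-identical genes. The pair that moved in opposite directions was Rasal3, higher by 2.12, and Cyp4f39, at -5.22, 49139 bases apart on chromosome 17.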
